A study of Mus musculus with 8 samples.

Results

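The 10 genes described here, Etv1, Etv4, Etv5, Dusp4, Dusp6, Spry2, Spry4, Spred1, Spred2 and Fgf4, are transcriptional targets, feedback inhibitors and the ligand of the FGF-ERK pathway, the pathway that the MEK inhibitor in 2i blocks. They were chosen by symbol from the 37263 genes counted in each library, and all 10 had reads. 9 of them, all except Spry4, were among the 14931 genes with at least 1 count-per-million (CPM) in at least 2 libraries and were tested. RNA was taken from E14 cells, a mouse ESC line of 129/Ola origin, at 4, 16, 24 and 32 hr after their serum medium had been exchanged for 2i. 2i is serum-free NDiff medium with LIF, the MEK inhibitor PD0325901 and the GSK3 inhibitor CHIR99021, and the cells were kept without feeders. At each time 1 culture had 2i alone and 1 had 2i with 17 µM vitC, a cofactor of TET and other dioxygenases, so that the 8 groups hold 1 library each and no group has a replicate. All groups carried the MEK inhibitor for at least 4 hr, no serum library was analysed here, and every change in time is therefore a change relative to cells already 4 hr in 2i. E14 is a single ESC line.

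In mouse ESCs, FGF4 is secreted by the cells themselves and signals through FGF receptors, RAS, RAF and MEK to the kinase ERK. Active ERK induces ETS transcription factors of the PEA3 group (Etv1, Etv4, Etv5), and it also induces its own inhibitors: the phosphatases Dusp4 and Dusp6 remove phosphate from ERK, and Sprouty (Spry) and Spred proteins act upstream of it, at the level of RAS and RAF. RNA of these genes is therefore widely used as a readout of ERK activity, and blocking MEK is known to favour the naive pluripotent state.

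The DNA just upstream of the members is shown because ETS factors bind a GGAA core and several of the members are known targets of the pathway. The 250 bases before the transcription start were taken from RefSeq on GRCm38.p6, for 9 starts of 7 of the 10 genes. Etv4 and Dusp4 had no entry among the starts used, and Spry4 was left out, so this description does not cover them. ETS hexamers (CGGAAG or AGGAAG, searched on both strands) are in capitals, and on the opposite strand they read CTTCCG or CTTCCT. Dusp6, chr10:99262981-99263230 on the plus strand, held 2. Etv1 at the first of its 2 listed starts, chr12:38779832-38780081 on the plus strand, held 1. Spred2, chr11:19924192-19924441 on the plus strand, held 3. Spry2, chr14:105896820-105897069 on the minus strand, held 0 of these hexamers and is shown for contrast. GGAA cores outside these hexamers are left in small letters and occur in each window shown, that of Spry2 included.
Dusp6: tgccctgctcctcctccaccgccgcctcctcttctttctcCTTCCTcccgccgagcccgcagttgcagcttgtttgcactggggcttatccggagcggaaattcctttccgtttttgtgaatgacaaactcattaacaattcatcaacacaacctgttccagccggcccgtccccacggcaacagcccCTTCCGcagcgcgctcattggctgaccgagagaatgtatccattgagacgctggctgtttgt
Etv1: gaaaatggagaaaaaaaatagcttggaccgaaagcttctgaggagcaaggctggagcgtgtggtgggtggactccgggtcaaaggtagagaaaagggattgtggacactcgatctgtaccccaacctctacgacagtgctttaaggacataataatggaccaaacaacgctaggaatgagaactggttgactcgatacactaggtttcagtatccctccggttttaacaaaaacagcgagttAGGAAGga
Spred2: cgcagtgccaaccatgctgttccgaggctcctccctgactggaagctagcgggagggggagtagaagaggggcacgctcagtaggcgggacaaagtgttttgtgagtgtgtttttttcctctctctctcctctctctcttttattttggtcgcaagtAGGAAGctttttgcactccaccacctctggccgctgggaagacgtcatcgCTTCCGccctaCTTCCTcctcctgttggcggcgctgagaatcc
Spry2: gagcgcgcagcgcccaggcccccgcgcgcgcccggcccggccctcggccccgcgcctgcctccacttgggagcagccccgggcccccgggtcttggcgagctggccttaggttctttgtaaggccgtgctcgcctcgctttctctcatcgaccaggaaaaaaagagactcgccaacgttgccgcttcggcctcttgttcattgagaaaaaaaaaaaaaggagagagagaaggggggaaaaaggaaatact

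Of the 9 starts, 4 held at least 1 hexamer (those 3 and Spred1, with 1), while Fgf4, the second start of Etv1 and both starts of Etv5 held 0. The bases after the Spred1 start and after the second Etv5 start were not found in any GENCODE M21 transcript of these genes. Among all 32851 starts in the table, 39.2% held at least 1, 11.3% held 2 or more and 2.78% held 3 or more. A match of letters is a description of this window and is not a binding site.

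Libraries held 4753528 to 18434932 counts, the smallest being vitC 24 hr. Lane 8 held the libraries of 4 and 24 hr, and lane 7 those of 16 and 32 hr. Hence 24 hr against 4 hr and 32 hr against 16 hr lie within a lane, whereas time and lane cannot be told apart in 16 hr or 32 hr against 4 hr. The share of counts on Lars2 and 2 features that vary with it was 0.0113% and 0.0277% in the 4 hr libraries and 0.206% to 7.11% in the others, so it also moved with time. Pluripotency markers (8 of 8 detected) summed to 1481 to 1752 CPM. Utf1 was the lowest of them, at 1.72 to 19.0 CPM, followed by Klf4 at 34.1 to 62.7 CPM. Of 6 fibroblast or feeder markers, Lum was at most 0.43 CPM, while the summed level, mostly Col1a1 and Col1a2, was 96.5 and 116 CPM at 4 hr and 263 to 673 CPM later. The list taken for endoderm (6 of 6 found, mostly Pdgfrb and Dab2) summed to 17.9 and 18.5 CPM at 4 hr and to 26.7 to 44.2 CPM later. In it Pdgfrb was at 7.46 to 23.7 CPM and Dab2 at 5.48 to 19.8 CPM. Gata4, Gata6, Sox17 and Foxa2 reached at most 2.51, 1.58, 4.72 and 1.01 CPM, so the sum says little about endoderm cells. The 3 remaining lists went the opposite way, with higher sums at 4 hr, as for Etv4 and Dusp4. Mesoderm markers (4 of 4 found) summed to 22.2 and 18.9 CPM at 4 hr and to 9.51 to 14.4 CPM later, with Mixl1 and Mesp1 under 1 CPM in every library. Trophoblast markers (5 of 5 found, mostly Krt8) summed to 809 and 609 CPM at 4 hr and to 364 to 545 CPM later, with Elf5 under 1 CPM throughout. Neural markers (3 of 4 found, mostly Tubb3) summed to 176 and 152 CPM at 4 hr and to 44.2 to 100.2 CPM later. Fewer cells of a type and less RNA per cell cannot be told apart in such bulk libraries, and the part of these markers in the results below was not tested.

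Relative to exon length, the level of the 10 genes spanned nearly the whole range from abundant to barely detected. Fgf4 was highest, with a mean of 66.1 RPKM (CPM per kilobase of merged exon) and a range over the 8 libraries of 55.0 to 85.3 RPKM. It was followed by Etv5 at a mean of 22.3 RPKM (17.6 to 27.0) and Spry2 at 14.3 RPKM (7.30 to 17.5), and the ranges of these 3 did not overlap. Then came Spred1 at 9.03 RPKM, Etv4 at 5.05, Spred2 at 3.95, Dusp4 at 3.92 and Dusp6 at 1.48 RPKM. Each neighbouring pair from Spry2 down to Dusp6 overlapped over the libraries, so that their order is not fixed. Etv1 at 0.113 RPKM and Spry4 at 0.0989 RPKM had the lowest means, and their ranges overlapped each other and the lower end of that of Etv4, which reached 0.134 RPKM. None of the 10 shared exon bases with another gene on either strand in GENCODE M21.

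The values that changed most were those of Etv4, a PEA3 transcription factor, and Dusp4, a nuclear ERK phosphatase. In 2i, Etv4 was at 54.8 CPM at 4 hr, 4.26 at 16 hr, 1.88 at 24 hr and 1.34 CPM at 32 hr. With vitC it was at 59.4, 2.60, 0.644 and 0.417 CPM at these times, the last 3 values resting on 18, 3 and 5 reads. Both 4 hr libraries stood above all 6 later libraries, and the level was lower at each later time than at the one before in either treatment.

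**Figure D1:**
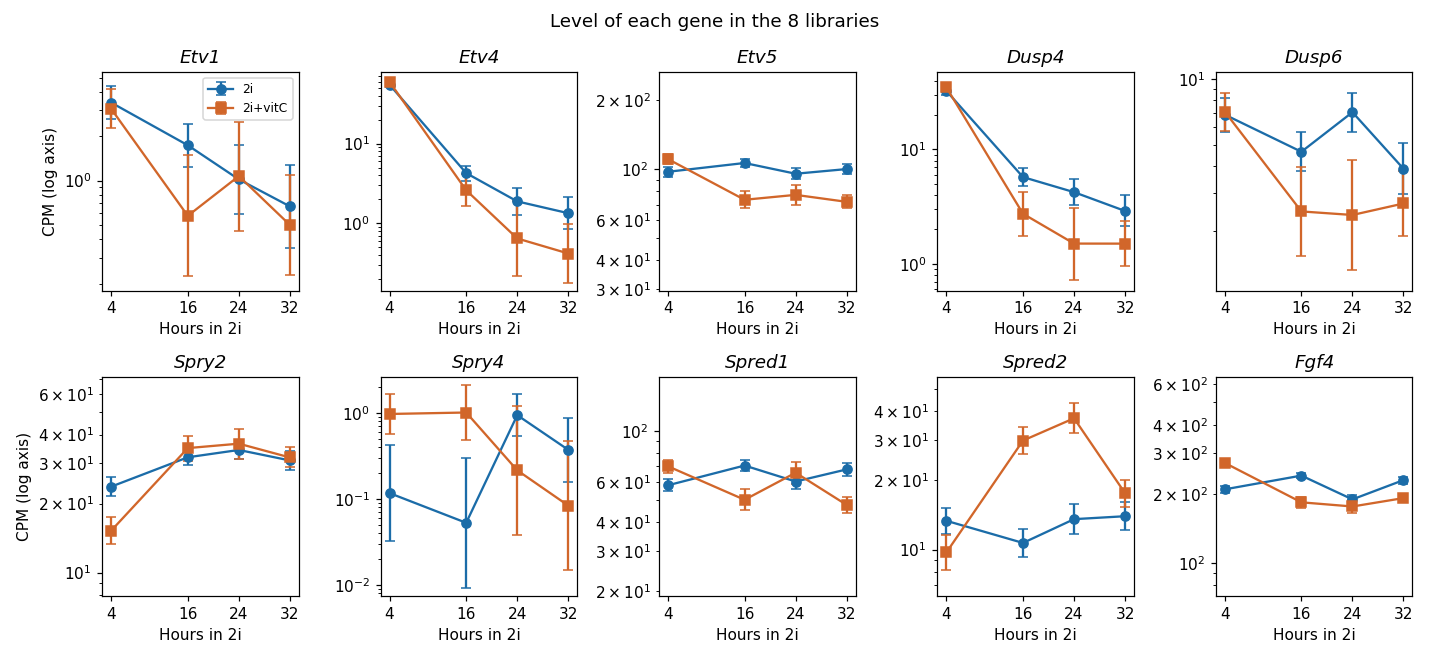
Level of each of the 10 genes in CPM (log axis, with its own range in each panel) against hours in 2i, for 2i (circles) and 2i with vitC (squares), 1 library per point, with Wilson 95% confidence intervals that cover counting error only. Etv4 is at 54.8 and 59.4 CPM at 4 hr and ends at 1.34 and 0.417 CPM, Dusp4 follows a like course, and Spred2 departs upward only with vitC, to 37.4 CPM at 24 hr.

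Tests used edgeR's quasi-likelihood model with time and treatment as additive terms on all 8 libraries, with Benjamini-Hochberg adjustment over the 14931 genes. No culture was repeated, so its error (3 residual degrees of freedom) measures how far the treatments depart from a shared course in time, and the p-values do not cover variation between cultures. The comparisons of 16, 24 and 32 hr with 4 hr share the 4 hr libraries and are not independent of each other. The log2 change of Etv4 was -4.07 ± 0.33 (SE) from 4 to 16 hr (adjusted p = 4.85e-05), -5.38 ± 0.38 to 24 hr (adjusted p = 9.04e-06) and -6.04 ± 0.38 to 32 hr (adjusted p = 2.03e-06). It was thus 41.7-fold lower at 24 hr. Within 2i alone, the ratio of 24 hr to 4 hr was -4.75 on the log2 scale (95% counting interval -5.51 to -4.28), and with vitC it was -6.21 (-8.81 to -4.97).

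Etv4 also stood at the far end of all genes in this experiment. By the size of the fitted drop it ranked 6 of 14931 genes at 16 hr, 2 at 24 hr and 5 at 32 hr. Between 16 and 32 hr, within a lane, its fitted log2 difference was -1.97 ± 0.43, with an adjusted p = 0.0601 that did not pass the threshold of 0.05. In that comparison the DESeq2 Wald test gave an adjusted p of 0.00762 for Etv4, and in edgeR it passed without the 2i 4 hr (adjusted p = 0.0313) or the vitC 4 hr library (0.0409).

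Dusp4 was at 32.5 CPM at 4 hr in 2i and at 5.74, 4.23 and 2.90 CPM at 16, 24 and 32 hr. With vitC, the levels were 34.9 CPM at 4 hr and 2.74, 1.5 and 1.5 CPM later, the latter from 19, 7 and 18 reads. As for Etv4, both 4 hr libraries were well above the 6 later ones, which did not reach 6 CPM. The fitted log2 change was -3.04 ± 0.33 at 16 hr (adjusted p = 0.000287), -3.55 ± 0.36 at 24 hr (adjusted p = 8.76e-05) and -4.01 ± 0.35 at 32 hr (adjusted p = 2.27e-05). At 24 hr this is an 11.7-fold drop, and between 16 and 32 hr the difference of -0.97 ± 0.37 did not pass (adjusted p = 0.264).

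With the Lars2 share as a covariate, the log2 change of Dusp4 at 24 hr was -2.69 with an adjusted p of 0.106. Etv4 at 24 hr and both genes at 16 and 32 hr still passed. In 2i at 16 hr, a library with a Lars2 share of 0.206%, the log2 ratio to the 4 hr library was -3.63 (95% counting interval -4.03 to -3.35) for Etv4 and -2.47 (-2.81 to -2.20) for Dusp4. The share in that 4 hr library was 0.0277%. These ratios rest on 1 pair of libraries in different lanes, so time and lane cannot be told apart in them. The cause of the drops was not tested.

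The 3 PEA3 genes did not move together. Etv5, the most abundant of them, was at 97.5, 106, 95.6 and 100.2 CPM in 2i and at 111, 73.6, 77.3 and 72.1 CPM with vitC, from 4 to 32 hr. The 4 libraries in 2i lay within a narrow band, and with vitC the 3 later ones lay below all others. Its fitted change did not pass at any time, with log2 values of -0.24 ± 0.17, -0.29 ± 0.17 and -0.30 ± 0.17 at 16, 24 and 32 hr against 4 hr (adjusted p = 0.370, 0.262 and 0.216). Without the 2i 4 hr library, Etv5 passed as lower at 24 hr (log2 -0.59, adjusted p = 0.0385) and 32 hr (-0.60, adjusted p = 0.0315). Without the vitC 4 hr library the log2 values turned to 0.08, 0.02 and 0.02 at 16, 24 and 32 hr, and with the Lars2 share as a covariate to 0.06 at 16 hr and 0.23 at 24 hr, none of which passed. Etv1, close to the limit of detection, was at 3.38, 1.74, 1.02 and 0.669 CPM in 2i and at 3.06, 0.577, 1.07 and 0.50 CPM with vitC. Both 4 hr libraries were again the highest, and Etv1 fell by 2.46 ± 0.61 on the log2 scale to 32 hr (adjusted p = 0.0124), which was lost without the 2i 32 hr (adjusted p = 0.0986), vitC 4 hr (0.0772) or vitC 32 hr library (0.0751) and with the Lars2 share as a covariate (0.0813). Its log2 values at 16 and 24 hr, -1.44 ± 0.57 and -1.68 ± 0.62, had adjusted p-values of 0.105 and 0.0724.

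The makeup of the PEA3 group was accordingly different at 4 hr and later. At 4 hr, Etv4 gave 42.4% (2i) and 41.3% (vitC) of the summed RPKM of Etv1, Etv4 and Etv5. At 16, 24 and 32 hr its share was 5.00%, 2.53% and 1.73% in 2i and 4.45%, 1.08% and 0.758% with vitC. The sum itself went from 41.7 to 24.9 RPKM in 2i and from 46.4 to 17.7 RPKM with vitC between 4 and 32 hr. The ratio of Etv5 to Etv4 in RPKM went from 1.35 to 56.7 in 2i and from 1.41 to 131 with vitC. Etv1 gave at most 0.61% of the sum in any library.

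**Figure D2:**
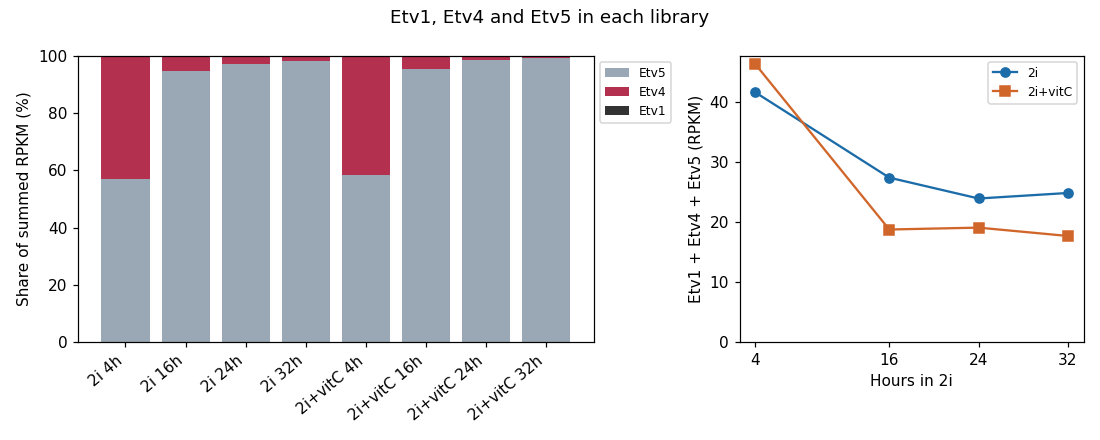
Left, the share of the summed RPKM of Etv1, Etv4 and Etv5 that each gene gave in the 8 libraries, in percent. Right, that sum in RPKM against hours in 2i. Etv4 gave 42.4% and 41.3% at 4 hr and at most 5.00% afterwards, and Etv5 the rest, while the sum at 32 hr was 24.9 RPKM in 2i and 17.7 RPKM with vitC.

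Dusp6, the cytoplasmic ERK phosphatase, behaved unlike Dusp4 and stayed detectable at a low level. In 2i it was at 6.88, 4.63, 7.06 and 3.86 CPM, so that the 24 hr library was as high as the 4 hr library. With vitC it was at 7.10 CPM at 4 hr and at 2.45, 2.36 and 2.67 CPM later, from 17, 11 and 32 reads. The fitted log2 value was -1.03 ± 0.39 at 16 hr (adjusted p = 0.0884) and -0.61 ± 0.39 at 24 hr (adjusted p = 0.293). Only 32 hr against 4 hr passed, with a log2 change of -1.15 ± 0.39 (adjusted p = 0.0459). This call is close to the threshold: it did not pass in 9 of 17 alternatives, with an adjusted p of up to 0.377 without the vitC 4 hr library, 0.230 without the 2i 32 hr library and 0.168 without the vitC 32 hr library. It was 0.0521 and 0.0524 without the 2i 16 hr and 2i 24 hr libraries. Without the 2i 4 hr library Dusp6 passed at 16 hr (log2 -1.56, adjusted p = 0.0441).

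Among the Sprouty and Spred inhibitors, Spry2 moved against the phosphatases. It was at 23.7 CPM at 4 hr and at 31.8, 34.3 and 30.8 CPM later in 2i, and with vitC at 15.2 CPM and then at 34.9, 36.5 and 31.8 CPM. All 6 later libraries stood above both 4 hr libraries and lay within 30.8 to 36.5 CPM. Spry2 rose by 0.78 ± 0.21 at 16 hr (adjusted p = 0.0273), 0.86 ± 0.21 at 24 hr (adjusted p = 0.0147) and 0.69 ± 0.21 at 32 hr (adjusted p = 0.0307), all on the log2 scale. The rise was larger in the vitC libraries, whose 4 hr value was lower: at 24 hr the log2 ratio to 4 hr was 0.53 (95% counting interval 0.33 to 0.73) in 2i and 1.25 (0.96 to 1.56) with vitC. Without the vitC 4 hr library the log2 change was 0.44, 0.52 and 0.36 at 16, 24 and 32 hr and none passed (adjusted p = 0.250, 0.172 and 0.30). With the Lars2 share as a covariate it did not pass either (adjusted p = 0.230, 0.610 and 0.126). The rise at 24 hr was also lost without the 2i 24 hr (adjusted p = 0.0546) or the vitC 24 hr library (0.139), and that at 32 hr without the 2i 32 hr (0.119) or the vitC 32 hr library (0.186). The rise at 16 hr was lost without the vitC 16 hr (0.126), the 2i 32 hr (0.0533) or the vitC 32 hr library (0.0535). Without a treatment term in the model, Spry2 did not pass at 16 hr (adjusted p = 0.0528) or 32 hr (0.0520).

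Spry4 had 2, 1, 12 and 5 reads in 2i and 13, 7, 1 and 1 with vitC at 4, 16, 24 and 32 hr. It exceeded 1 CPM in only 1 library, vitC 16 hr with 1.01 CPM, and was not tested. The higher values fell on the early libraries with vitC and on the late ones in 2i, at a depth at which 3 counts correspond to 0.158 to 0.644 CPM.

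Spred1, which binds neurofibromin and so restrains RAS, was at 57.9, 70.6, 60.1 and 67.9 CPM in 2i and at 70.1, 50.1, 65.7 and 47.5 CPM with vitC. Its levels spanned 1.49-fold over the 8 libraries with no order by time, and no change passed, the largest log2 value against 4 hr being -0.17 ± 0.20 (adjusted p = 0.573).

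Spred2 differed from Spred1 in its vitC libraries. In 2i it was at 13.3, 10.7, 13.6 and 14 CPM, and with vitC at 9.71 CPM at 4 hr, then at 29.9, 37.4 and 17.6 CPM. The 3 later vitC libraries were above all 4 libraries in 2i, and the 4 hr vitC library was below them. The fitted change in time, which averages the treatments, did not pass (log2 0.58 ± 0.38, 0.91 ± 0.39 and 0.36 ± 0.38 with adjusted p = 0.321, 0.117 and 0.514). Without the 2i 4 hr library it passed as higher at 16, 24 and 32 hr (log2 1.43, 1.76 and 1.26, adjusted p = 0.0271, 0.00796 and 0.0343). Without the vitC 4 hr library the direction turned at 16 hr (log2 -0.12, adjusted p = 0.878) and 32 hr (-0.28, adjusted p = 0.633).

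Fgf4, the ligand, was at 209, 239.9, 189 and 229 CPM in 2i and at 272, 183, 176 and 191 CPM with vitC. The 8 values spanned 1.55-fold. The fitted log2 values were -0.19 ± 0.17, -0.41 ± 0.17 and -0.20 ± 0.17 at 16, 24 and 32 hr against 4 hr, and none passed (adjusted p = 0.470, 0.119 and 0.417). Without the 2i 4 hr library, Fgf4 passed as lower at 24 hr (log2 -0.71, adjusted p = 0.0191). The direction turned, without passing, in other fits: with the Lars2 share as a covariate the log2 values were 0.12, 0.14 and 0.01 at 16, 24 and 32 hr, and without the vitC 4 hr library they were 0.13 at 16 hr and 0.13 at 32 hr. Without the vitC 16 hr library the value at 16 hr was 0.0017.

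**Figure D3:**
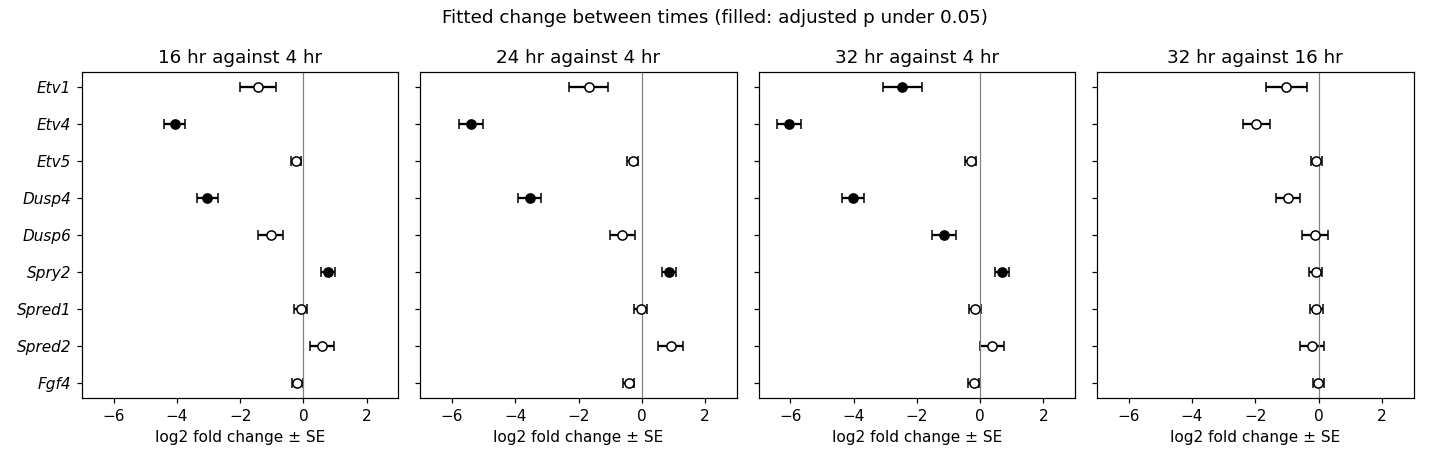
Fitted log2 fold change with its SE (horizontal bar) for the 9 genes tested, between the times named above each panel, from all 8 libraries. Filled points have an adjusted p under 0.05: Etv4 and Dusp4 lie far to the left in the 3 comparisons with 4 hr, reaching -6.04 and -4.01 at 32 hr, Spry2 lies to the right, and no point is filled for 32 hr against 16 hr.

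Counted together, 2 of the 9 tested members fell and 1 rose at 16 hr against 4 hr, where 7.24% of all tested genes fell and 9.16% rose. At 24 hr against 4 hr, within a lane, again 2 fell and 1 rose, against 8.98% and 11.5% of all genes. At 32 hr, 4 fell and 1 rose, against 11.8% and 13.5% of all genes. The median log2 change of the 9 was -0.24, -0.41 and -0.30, and that of all genes was 0.01, 0.01 and 0.00. Between 16 and 32 hr, 0 of the 9 passed in edgeR, with 2 at an unadjusted p under 0.05, a level that 14.3% of all genes reached. After adjustment 0.248% of all genes fell and 0.335% rose. In DESeq2 1 member (Etv4) passed, among 229 genes. The median log2 change in that comparison was -0.11 for the members and 0.00 for all genes.

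The question of what vitC added was addressed with time as a block. None of the 9 members passed in edgeR or DESeq2, with 4 at an unadjusted p under 0.05 in edgeR, a level that 13.8% of all genes reached. After adjustment, 0.107% of all genes were higher and 0.0603% lower with vitC. The median log2 difference of the members was -0.28, against -0.02 for all genes. The fitted values were -0.65 ± 0.29 for Dusp6 (adjusted p = 0.339), -0.61 ± 0.26 for Dusp4 (0.312), -0.45 ± 0.27 for Etv4 (0.492) and -0.28 ± 0.12 for Etv5 (0.336). They were -0.47 ± 0.45 for Etv1 (0.696), -0.15 ± 0.14 for Spred1 (0.686), -0.09 ± 0.12 for Fgf4 (0.795) and -0.09 ± 0.15 for Spry2 (0.839). Spred2 was at 0.71 ± 0.27 (adjusted p = 0.265).

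The 4 hr libraries of both treatments were alike for the genes that later dropped. The log2 ratio of vitC to 2i was 0.12 (95% counting interval -0.02 to 0.25) for Etv4, 0.10 (-0.08 to 0.28) for Dusp4 and 0.04 (-0.36 to 0.45) for Dusp6. For Etv1 it was -0.135 (-0.755 to 0.460). From 16 hr on, the ratios of Dusp4, Dusp6 and Etv4 lay below 0, while those of Etv1 did not at every time. For Dusp4 they were -1.02 (-1.85 to -0.35) at 16 hr, -1.40 (-2.88 to -0.35) at 24 hr and -0.88 (-1.84 to -0.11) at 32 hr. For Dusp6 they were -0.87 (-1.76 to -0.16), -1.52 (-2.63 to -0.67) and -0.51 (-1.22 to 0.13). For Etv4 they were -0.68 (-1.54 to 0.04), -1.34 (-3.92 to 0.17) and -1.37 (-3.47 to -0.20), so that only the last interval lay wholly below 0. The ratios of Etv1, from 4, 5 and 6 reads with vitC, were -1.36 (-3.55 to -0.10), 0.06 (-1.77 to 1.65) and -0.33 (-2.19 to 1.24). The ratio of Etv5 was 0.18 (0.08 to 0.29) at 4 hr and -0.53, -0.31 and -0.47 later.

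**Figure D4:**
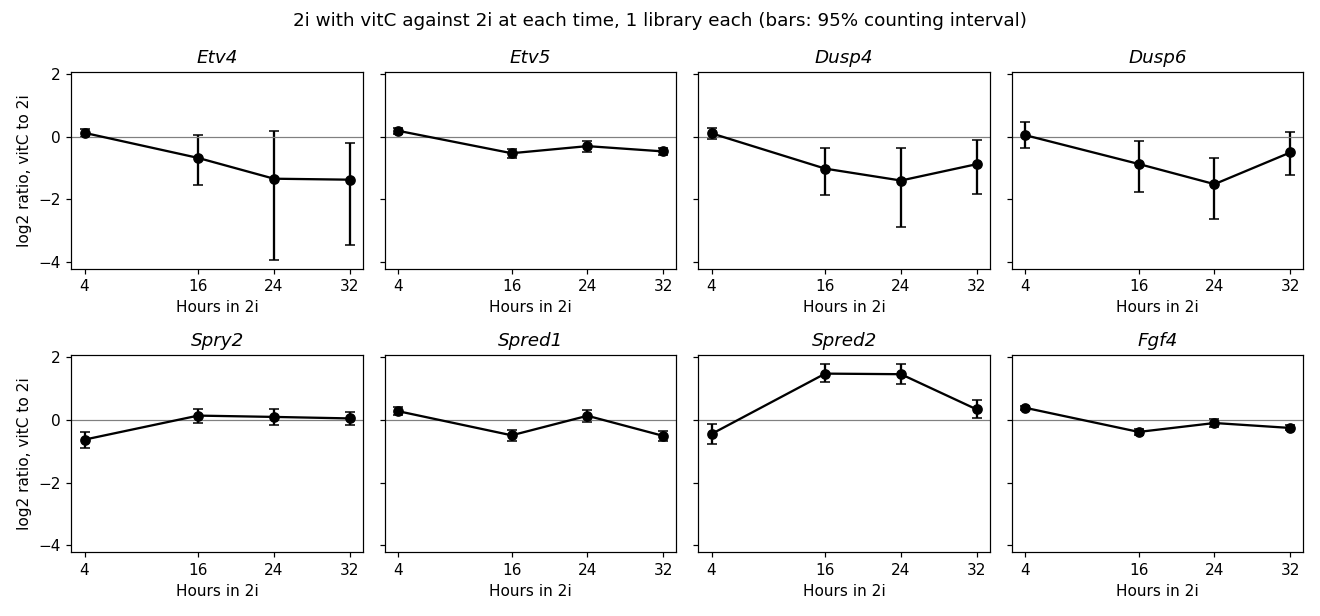
The log2 ratio of the level in 2i with vitC to that in 2i at each time, 1 library each, for 8 of the 10 genes (all except Etv1 and Spry4), with exact 95% intervals for counting error only. Dusp4, Dusp6 and Etv4 are near 0 at 4 hr and below 0 afterwards, Spry2 is below 0 only at 4 hr with -0.63, and Spred2 is above 0 at 16 and 24 hr with 1.47 and 1.45.

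Spred2 had a log2 ratio of vitC to 2i of -0.45 (-0.78 to -0.14) at 4 hr, 1.47 (1.20 to 1.77) at 16 hr, 1.45 (1.15 to 1.77) at 24 hr and 0.33 (0.04 to 0.62) at 32 hr. Without the 4 hr pair, its vitC difference was 1.10 on the log2 scale and passed (adjusted p = 0.0289). It also passed without the 2i 4 hr (adjusted p = 0.0241) or the vitC 4 hr library (adjusted p = 0.0315) alone. The vitC libraries at 16 and 24 hr are the shallowest, with 6969300 and 4753528 counts, and had Lars2 shares of 7.11% and 6.37%. The 2i 24 hr library, with a Lars2 share of 5.92%, held Spred2 at 13.6 CPM. With that share as a covariate no vitC difference passed for any gene. Spry2 had a log2 ratio of -0.63 (-0.89 to -0.39) at 4 hr, and later ratios of 0.13, 0.09 and 0.04, whose intervals held 0. Fgf4 went from 0.38 (0.32 to 0.45) at 4 hr to -0.39 (-0.48 to -0.30), -0.10 (-0.22 to 0.01) and -0.26 (-0.34 to -0.18).

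Whether the vitC difference itself changed with time was tested by a linear term in hours, on 2 residual degrees of freedom. None of the 9 members and 0% of the 14931 genes passed in edgeR, with 431 genes, 2 of them members, at an unadjusted p under 0.05, and DESeq2 called 1 gene, which was not a member. The members were Etv4, with a log2 slope of -0.07 per hr (unadjusted p = 0.00727), and Dusp4, with -0.05 per hr (unadjusted p = 0.0433), and the adjusted p of both was 0.99974. A linear change of the vitC difference with hours was therefore not detected for the members. Such a term does not describe a difference that rises and then falls, as the ratios of Spred2 did.

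The rest of the pathway was read from lists of its genes by role. Among 9 other ligands and receptors, of which 6 were tested, Fgfr1, the main FGF receptor of ESCs, rose at 24 hr by 0.60 ± 0.17 on the log2 scale (adjusted p = 0.0274) and none fell. At 32 hr, Fgfrl1 (1.21) and Fgfr2 (0.77) rose and the ligand Fgf8 (-1.59) fell. Fgfr1 was at 73.6, 106.9, 89.4 and 63.9 CPM in 2i and at 74.9, 169.8, 144 and 77.0 CPM with vitC, high at the middle times in either treatment. Fgfr1 fell by 0.94 on the log2 scale between 16 and 32 hr (adjusted p = 0.0343), a call that was lost when each of the 4 libraries of those times was left out in turn, and without a treatment term.

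Of 15 adaptors and RAS regulators, all tested, 4 rose and 1 fell at 24 hr. Among them, the RAS exchange factor Sos2 (log2 1.31) and the ubiquitin ligase Cbl (0.64) rose, and Hras (-0.55) fell. At 32 hr, 2 rose, Frs3 (1.16) and Sos2 (1.07), and Hras fell (-0.51). Of the 11 RAF, MEK, ERK and RSK genes, all tested, 3 rose and 2 fell at 24 hr, and 4 rose and 0 fell at 32 hr. Mapk3, which encodes ERK1, was at 35.8 and 40.6 CPM at 4 hr and at 60.8 to 81.7 CPM in the 6 later libraries, and rose by 0.84 ± 0.14 at 24 hr (adjusted p = 0.00199) and 1.04 ± 0.14 at 32 hr (adjusted p = 0.000367). The RSK kinase Rps6ka3 (1.00 at 24 hr, 0.63 at 32 hr) and the scaffold Ksr1 (0.88 and 0.89) rose as well, and Rps6ka1 fell at 24 hr (-0.53).

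Other feedback inhibitors, 14 of 16 tested, were mixed: 2 rose and 3 fell at 24 hr, and 2 rose and 2 fell at 32 hr. Dusp5 and Dusp10, a phosphatase mainly of JNK and p38, fell by 1.29 and 1.34 on the log2 scale at 24 hr and by 1.01 and 1.10 at 32 hr. Dusp5, an ERK phosphatase of the nucleus, was at 38.7 and 41.8 CPM at 4 hr and at 13.4 to 24.3 CPM later. Il17rd (Sef), an inhibitor that holds active ERK in the cytoplasm, rose by 0.72 ± 0.15 at 24 hr (adjusted p = 0.00648) and 0.95 ± 0.15 at 32 hr (adjusted p = 0.000898), and the RAS GTPase activator Rasa3 rose at 32 hr (1.02).

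Of 14 other ETS genes, 13 tested, 3 rose and 1 fell at 24 hr, and only Elk1 rose at 32 hr (log2 0.63). At 24 hr, Elf4 (1.19), Elk1 (0.84) and Etv6 (0.65) rose and Ets1 fell (-0.69). None of them had a change as large as that of Etv4. Among 16 immediate early and delayed targets, 11 tested, Ccnd1, the cyclin of the G1 phase, fell by 1.57 ± 0.19 at 24 hr (adjusted p = 0.000288) and 1.93 ± 0.19 at 32 hr (adjusted p = 4.52e-05), while Myc rose (2.24 and 2.51), as did the ephrin receptor gene Epha4 (0.94 and 1.17) and, at 32 hr, Junb (0.71). In this list, 3 rose and 2 fell at 24 hr and 5 rose and 1 fell at 32 hr.

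The list medians at 24 hr were 0.39 for ligands and receptors, 0.32 for adaptors, -0.06 for the kinases, -0.03 for other inhibitors, 0.63 for other ETS genes and 0.26 for early and delayed targets, against 0.01 for all genes and -0.41 for the 9 members. In the same order, the list medians were 0.01, 0.23, 0.15, 0.03, 0.11 and 0.12 at 16 hr (members -0.24). They were 0.37, -0.01, 0.09, 0.06, 0.08 and 0.54 at 32 hr (members -0.30). No gene of these lists passed for vitC or for its change with hours. At 16 hr, 15 genes of the lists passed, of which 5 passed with the Lars2 share as a covariate, 6 without the vitC 16 hr library, 3 without the vitC 4 hr library, 8 without the 2i 4 hr library and 8 without the 2i 16 hr library. At 24 hr, 25 passed, of which 0 passed with the Lars2 share as a covariate, 7 without the vitC 24 hr library, 6 without the vitC 4 hr library and 14 without the 2i 24 hr library. Of the 21 that passed at 32 hr, 15 passed with that covariate, 7 without the 2i 32 hr library, 10 without the vitC 32 hr library and 11 without the vitC 4 hr library.

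**Figure D5:**
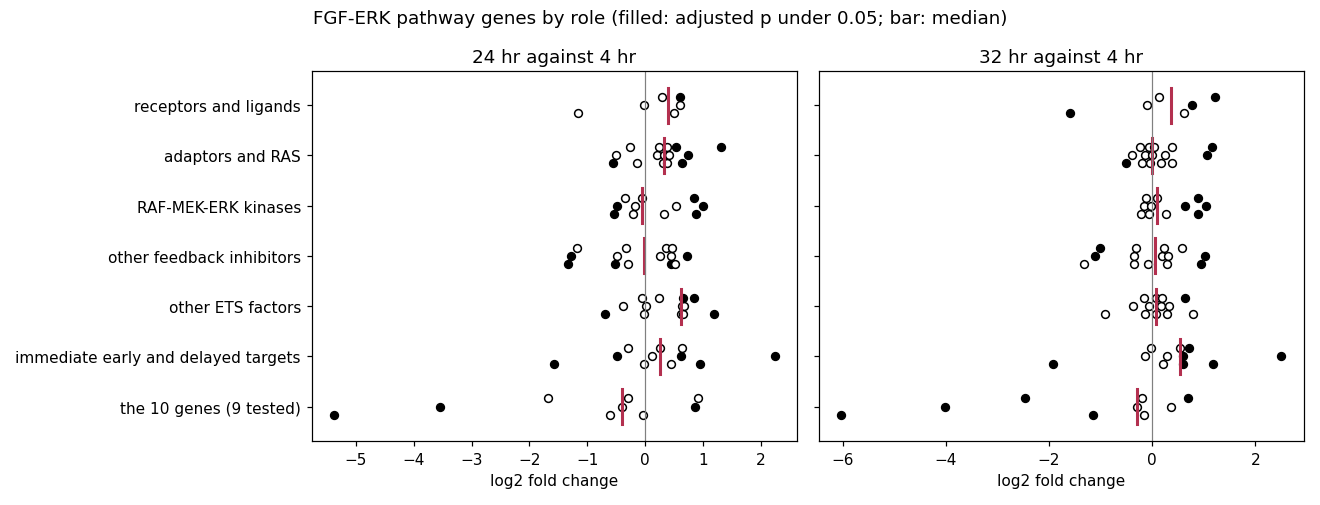
Fitted log2 fold change of the tested genes of each role list and of the 9 tested members, at 24 hr and 32 hr against 4 hr. Each point is a gene, filled where the adjusted p is under 0.05, and the vertical bar is the median of the list. The members Etv4 (-5.38 and -6.04) and Dusp4 (-3.55 and -4.01) lie beyond all genes of the other lists.

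The genes whose pattern over the 8 libraries was most like that of Etv4, among 10954 genes with a mean of at least 5 CPM, were Wdr35 (Pearson r = 0.997 of log2 CPM), Zfp473 (0.996), Dnmt3l (0.995), Nfyb (0.994) and Exosc2 (0.989). Of these, Dnmt3l, the cofactor of the de novo DNA methyltransferases, was at 124 (2i) and 120 CPM (vitC) in the earliest libraries and at 11.3 and 4.34 CPM in the latest, a smaller change than that of Etv4. The correlation does not measure the size of a change, and the others changed far less. From 4 to 32 hr in 2i, Wdr35 went from 89.3 to 48.7 CPM and Zfp473 from 64.8 to 38.8 CPM. Nfyb went from 172 to 104 CPM and Exosc2 from 109 to 64.7 CPM. For Dusp6 they were the snoRNA gene Gm23455 (r = 0.967), Mrpl35 (0.967), Mitd1 (0.962), the pseudogene Gm12231 (0.953) and Mrm2 (0.947). These are descriptions over 8 libraries that share a time course, and carry no test.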

How the data were processed

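RNA of 8 E14 cultures was depleted of ribosomal RNA (Ribo-Zero Gold), made into TruSeq libraries, and sequenced as 50 bp single-end reads. Per the labels and the submitters' processing notes, the authors aligned with GSNAP to NCBIM37 (mm9) and counted with HTSeq. The deposited values are raw counts per Ensembl gene, without normalization. The HTSeq strand setting and annotation release are not given in the sources used here. The labels give the inhibitors in mM and the paper in µM. The lane was read from the deposited file names.

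Symbols and exon lengths came from GENCODE M21 (32604 of 37263 identifiers found). No coordinates of the files were used, and those printed are of GRCm38.p6. CPM and RPKM were computed from the counts with edgeR's TMM factors, with Wilson 95% intervals. Ratios of single libraries used a prior count of 2, with exact conditional intervals. Intervals and the floor of 3 counts cover counting error only, as reads were not collapsed to molecules.

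Tests used edgeR 4.0.16 in R 4.3.3 (quasi-likelihood, Benjamini-Hochberg adjustment over all genes tested, threshold 0.05) and were checked on simulated data. As alternatives, DESeq2 1.42.0 was run, along with other scalings, other filters, a correction for GC content and length, the Lars2 share as a covariate, models without treatment or time terms, and leaving out each library or time. Members and lists were chosen with earlier results of these data known. All 10 members are reported, and of each list up to 4 genes past the threshold by size of change, except 1 gene that is not reported here. Fgfr1 and Mapk3 were also followed by library, which was decided after their values were seen.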

Additional observations from a re-analysis of the deposited data

Results flagged for a closer look

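Spred1 was singled out because its libraries moved in opposite directions in the treatments. Each later library in 2i was above the 4 hr library (log2 ratios 0.29, 0.05 and 0.23 at 16, 24 and 32 hr), and each later library with vitC was below it (-0.48, -0.09 and -0.56). Averaged over these times, 2i gave 0.19 and vitC -0.38, a difference of 0.57. This difference of means was not tested. The linear change of the vitC difference with hours had an adjusted p of 0.99974 for Spred1 in edgeR. Of these 6 ratios, the counting intervals of both 24 hr ratios held 0. All 6 rest on the 4 hr libraries, which differed by a log2 ratio of 0.27 between treatments (95% counting interval 0.14 to 0.41).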

How the results depend on the processing

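Etv4 kept its drop past the threshold in all 18 alternatives at 16, 24 and 32 hr against 4 hr, and Dusp4 in all but the Lars2 covariate at 24 hr. The number of members that passed, 3 at 16 hr, 3 at 24 hr and 5 at 32 hr against 4 hr and 0 in the other comparisons, changed as follows. Without a filter on low counts it was 5 at 24 hr, 1 for 32 hr against 16 hr (Etv4) and 1 for vitC (Spred2). With the Lars2 share as a covariate it was 1 at 24 hr and 2 at 32 hr, in a fit with fewer degrees of freedom. With a mean of at least 5 CPM it was 3 at 32 hr, since Etv1 and Dusp6 were then not tested, and without a treatment term it was 3 at 32 hr. The DESeq2 Wald test gave 1 (Etv4) for 32 hr against 16 hr. Leaving out 1 library or time gave 2 to 5 members at 16 hr, 2 to 6 at 24 hr, 2 to 7 at 32 hr, 0 to 1 for 32 hr against 16 hr and 0 to 1 for vitC. The highest values at 16, 24 and 32 hr came without the 2i 4 hr library, and the 2 at 32 hr without the 2i 32 hr, vitC 4 hr or vitC 32 hr library. The cause was not tested unless stated. Of the genes of the pathway lists, 7 of 15 at 16 hr and 15 of 25 at 24 hr still passed without a treatment term. Of all genes called between 16 and 32 hr, 57.5% were higher, and 44.6% with the GC and length correction. No member or list gene that passed in the main fit changed sign in an alternative. Etv5, Spred2 and Fgf4, which passed in time only in some alternatives, had the opposite sign in others. Depth limits Spry4, Etv1 and the vitC values of Etv4, which rest on few reads.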
